A study of Bos taurus with 6 samples.

Results

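Histone H3 lysine 4 trimethylation (H3K4me3) was profiled by ChIP-seq in bovine blastocysts, and 120 narrow high-scoring regions were taken from the peak lists. Peaks of the 3 H3K4me3 replicates were pooled, and peaks that overlapped or touched were joined, which gave 24746 regions. Of these, 16851 held a peak in all 3 replicates, 16231 of them on the 29 autosomes. The 120 regions were chosen by their measured width and score: in each replicate they were covered by peaks over 2000 bp or less, and their highest peak score was 1000 or more. They made up 0.739% of the 16231 autosomal regions found in all 3 replicates. Width, score and presence in all replicates are therefore descriptions of how the regions were picked, and no test is attached to them.

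The embryos were produced by in vitro fertilization (IVF), cultured in mSOF medium with bovine serum albumin under 5% oxygen, and collected on day 8, at 192 h, as unsexed pools of approximately 11 blastocysts per replicate. The pools mixed early, expanded, hatching and hatched blastocysts. Whole embryos were used, so that trophectoderm and the cells of the inner cell mass were measured together. The 3 replicates came from 2 IVF procedures, so that at least 2 of them shared one. In ChIP-seq, crosslinked chromatin is sheared, fragments that carry a mark are recovered with an antibody, here 3 µg of anti-H3K4me3, and the recovered DNA is sequenced. An aliquot of the same chromatin without antibody, the input, served as the control of each replicate, and all samples belong to 1 condition.

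H3K4me3 is placed on nucleosomes around transcription start sites by methyltransferases of the SET1 and MLL families, which are drawn to CpG-rich promoters. At an active promoter the mark flanks a stretch that is poor in nucleosomes, and it commonly reaches some distance into the transcribed gene. Its extent differs widely between genes. Long stretches are known from genes that define a cell type, and short stretches from many promoters of other genes as well as from some enhancers.

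The score in the lists is that of the authors' peak caller and has no stated unit. The highest score in each list was 3233.06, which equals the log10, multiplied by minus 10, of the smallest positive number that a computer stores in double precision. A further 3795 peaks of replicate 1, 1132 of replicate 2 and 3233 of replicate 3 had a score of exactly 3100. The lists held 22404, 19076 and 22060 peaks in replicates 1, 2 and 3, and 56.1%, 62.9% and 57.4% of them scored under 1000. Scores of replicate 2 were the lowest of the 3, and the study's read table gives it the fewest mapped reads. Read numbers per peak are not given there, and the depth of a single region is unknown.

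Among regions with a high score, a narrow one was rare. Of the 6798 autosomal regions that reached a score of 1000 in each replicate, 120 (1.77%) stayed at or under 2000 bp in each replicate. Conversely, of the 4971 narrow regions found in all 3 replicates, 120 (2.41%) reached the score limit in each. The higher the score, the fewer narrow regions there were. In replicate 1, 25.4% of the 1557 regions with a score from 1000 to 1500 were at or under 2000 bp, against 14.2% of 1379 from 1500 to 2000 and 4.62% of 2576 from 2000 to 3100. At 3100 or above, 8 of 3987 regions (0.201%) were this narrow. Replicates 2 and 3 gave the same order, from 16.8% down to 0.319% and from 37.1% down to 0.292%, respectively.

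**Figure D1:**
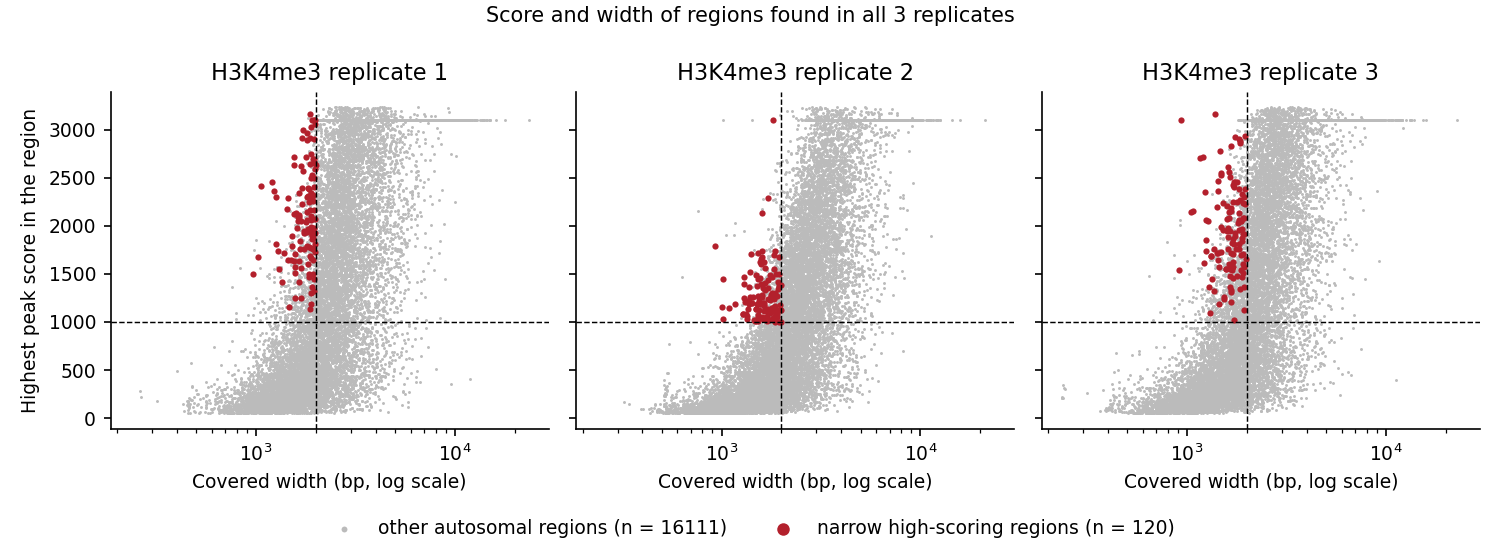
Highest peak score of a region (vertical axis, score of the peak caller) against the bp it was covered by peaks (horizontal axis, log scale) in each of the 3 H3K4me3 replicates, with the 120 narrow high-scoring regions in red, the 16111 other autosomal regions found in all replicates in grey and the limits of 2000 bp and 1000 as dashed lines. The 120 regions lie at the edge of a continuous cloud, with no gap on either side of a limit, and most of them have scores under 1500 in replicate 2.

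Within the lists, the scores of the 120 regions were above the middle but not at the top. For replicates 1, 2 and 3, the median scores of 2047, 1202 and 1920.4 stood at percentiles 70.6, 67.7 and 70.9 of the peaks of each list. The mean of these percentiles was 69.7 ± 1.76 (SD, n = 3 replicates). The 6678 wider regions that passed the same score limit had median percentiles of 90.4, 82.0 and 91.6, and the 4851 narrow regions that failed it had 37.9, 26.9 and 36.6. A score of 3100 or more was reached by 4, 1 and 2 of the 120 regions in replicates 1, 2 and 3, compared with 59.5%, 18.7% and 51.2% of the wider high-scoring regions. The name high-scoring thus holds relative to other narrow regions and not relative to the strongest H3K4me3 regions of the blastocyst.

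The score limit acted mainly in replicate 2 and the width limit mainly in replicate 1. Replicate 2 had the lowest score in 112 of the 120 regions (93.3%), beside 89.5% of all 16231 autosomal regions. Replicate 1 was the widest in 64 regions (53.3%), beside 70.9% of all. When the score limit of replicate 2 was dropped, 399 regions met the remaining limits, against 125 and 120 when it was dropped in replicate 1 or 3. Dropping the width limit of replicate 1 gave 250 regions, against 137 and 135 for replicates 2 and 3. In replicate 2, 101 of the 120 regions scored between 1000 and 1500.

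The 120 regions filled the range just under the width limit. For replicate 1 the covered width ran from 963 to 1996 bp with a median of 1829 bp, for replicate 2 from 924 to 1994 bp with a median of 1627 bp, and for replicate 3 from 907 to 1969 bp with a median of 1662 bp. The mean of the medians was 1706 ± 108 bp (SD, n = 3). By comparison, it was 3281 ± 254 bp in the wider high-scoring regions and 1302 ± 139 bp in the narrow, lower-scoring ones. Just inside the width limit was chr8:86197944-86199941, with 1996, 1721 and 1725 bp in replicates 1, 2 and 3, followed by chr18:65675304-65677542, with 1942, 1994 and 1865 bp. Just outside it were a region on chromosome 7 from 59381020 to 59383056, with 2002, 1954 and 1836 bp, and one on chromosome 3 from 93624209 to 93626218, with 1842, 1771 and 2010.0 bp. At the score limit, the lowest scores inside were 1000.63 at chr22:51078572-51080801 and 1001.09 at chr24:49100680-49102542, both in replicate 2. The closest ones outside were 996.03 in replicate 2 on chromosome 26 from 24078937 to 24080708, and 994.96 in replicate 1 on chromosome 25 from 17729436 to 17731198. The latter region scored 3100 in replicate 2 and 1692 in replicate 3.

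**Figure D2:**
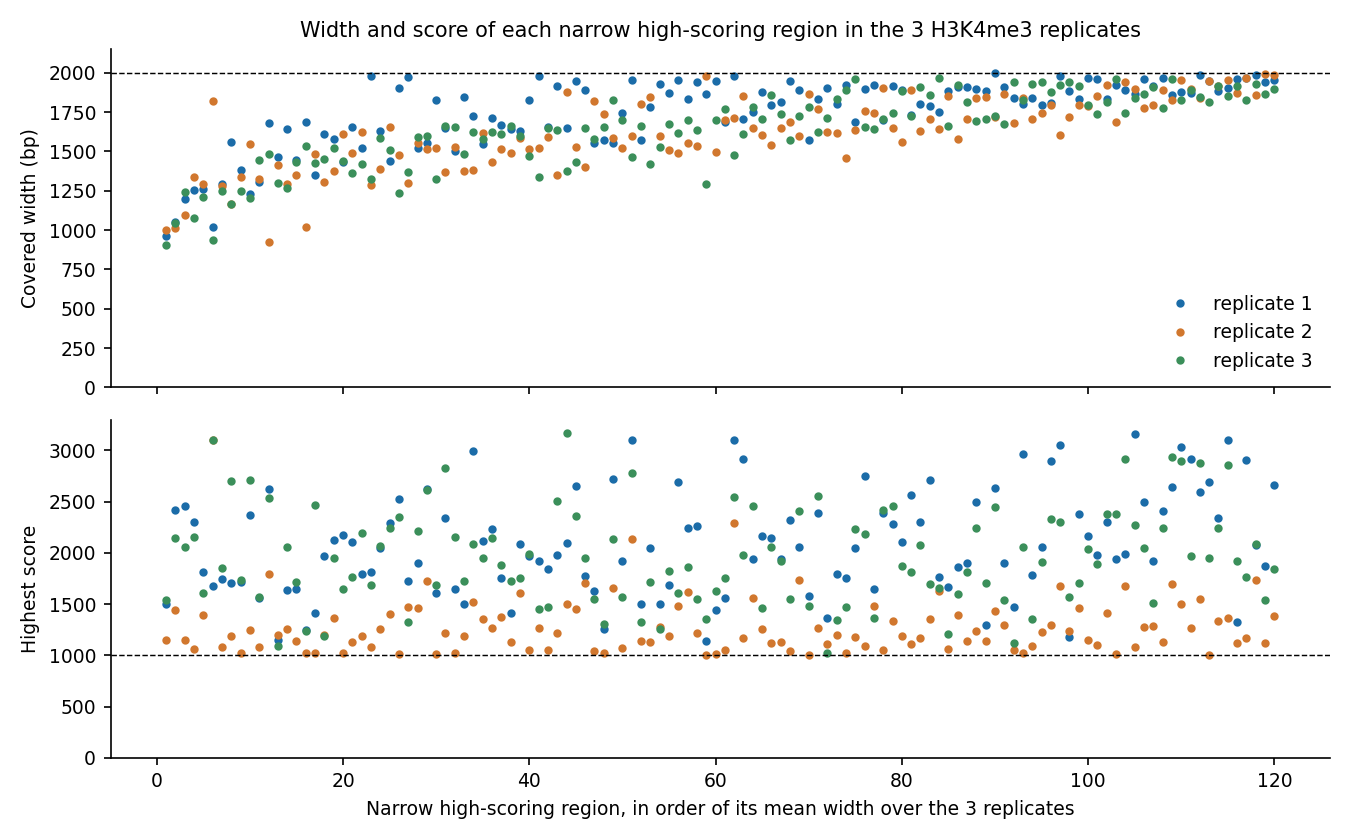
Covered width in bp (top) and highest score (bottom) of each of the 120 narrow high-scoring regions, 1 point per H3K4me3 replicate, in order of the mean width over the replicates, with the limits as dashed lines. Widths rise from about 1000 bp and gather below 2000 bp, whereas the scores of replicate 2 lie along the limit of 1000.

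The narrowest region was on chromosome 8 from 61094653 to 61095654 (coordinates on UMD 3.1.1). Replicates 1, 2 and 3 gave it widths of 963, 1002 and 907 bp and scores of 1498, 1151 and 1540.4. Its width was thus close in the 3 lists, and 907 of its 1002 bp (90.5%) lay under a peak in all of them. The next, on chromosome 23 from 15556858 to 15557977, measured 1054, 1011 and 1043 bp in replicates 1, 2 and 3, with higher scores of 2414, 1443 and 2149. On chromosome 17, a region from 75147253 to 75148523 had 1199, 1095 and 1242 bp with scores of 2458, 1147 and 2055. Both had a score in replicate 2 well under those of the other replicates. On chromosome 5, the region from 115059486 to 115060821 had 1253, 1336 and 1075 bp with scores of 2300.5, 1061 and 2153. The fifth, on chromosome 2 from 39229980 to 39231275, had 1263, 1296 and 1209 bp with scores of 1815, 1393 and 1611. Of these 5 regions, 3 had another H3K4me3 region within 1 kb.

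Ranked by the lowest of their 3 score percentiles, the first was a region on chromosome 18 from 64654036 to 64655991, covered over 1956, 1600.0 and 1462 bp in replicates 1, 2 and 3, with scores of 3100, 2135 and 2778. A region on chromosome 29 from 12459173 to 12461152 had 1980.0, 1711 and 1479 bp and scores of 3100, 2288 and 2547. In both, the widest call came from replicate 1 and the narrowest from replicate 3. On chromosome 1, the region from 71610863 to 71612878 had 1858, 1828 and 1959 bp with scores of 2646, 1692 and 2933. The region on chromosome 21 from 41692644 to 41694315 was steadier in width, with 1554, 1518 and 1597 bp and scores of 2628, 1722 and 2614. The fifth, on chromosome 5 from 104543524 to 104545229, varied most, with 1678, 924 and 1481 bp and scores of 2622, 1791 and 2531. Only 51.1% of that last region lay under a peak in all 3 replicates, the lowest share among the 120.

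The position of the 120 regions was close between replicates. The stretch from the latest start to the earliest end of the 3 replicates made up a median of 83.1% of the region (interquartile range 76.6 to 88.1%). It was 68.3% in the narrow, lower-scoring regions and 80.2% in the wider high-scoring ones. Where a region was called as more than 1 peak, gaps between its peaks count into this stretch. Such calls were more common in the wider high-scoring regions. Median distances between midpoints were 87.2, 62.5 and 71.8 bp for the pairs 1-2, 1-3 and 2-3, with a mean of 73.8 ± 12.5 bp (SD over the 3 pairs). The same mean was 96.2 ± 7.51 bp in the narrow, lower-scoring and 138 ± 7.57 bp in the wider high-scoring regions. Relative to width, the medians were 5.01%, 3.78% and 4.46% for the 3 pairs, near the 4.36%, 3.92% and 4.13% of the wider high-scoring regions. The largest distance of a pair was 476.5 bp, between replicates 2 and 3. Regions are not replicates of the embryos, and these differences were not tested.

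Apart from 1, each of the 120 regions was called as a single peak in every replicate (99.2%, 95% Wilson interval 95.4 to 99.9%, which covers counting error only), beside 98.6% of the narrow, lower-scoring and 89.4% of the wider high-scoring regions. The width limit bounds the number of peaks that a region can hold, so this share is tied to how the sets were chosen. The exception lay on chromosome 2 from 125500565 to 125502473. It was called as 2 peaks in replicates 1 and 3 and as 1 peak in replicate 2, with 1647, 1879 and 1378 bp covered in replicates 1, 2 and 3. Its scores were 2094, 1498 and 3165, and the last was above 3100. Across the 120 regions, the order of the scores was held in part, and Spearman's rho was 0.39, 0.58 and 0.40 for the pairs 1-2, 1-3 and 2-3. Over all 16231 autosomal regions the coefficients were 0.95, 0.96 and 0.96. For width they were 0.39, 0.46 and 0.57 for the same pairs, against 0.92, 0.93 and 0.93. These are correlations across regions of the same libraries, and the limits on width and score narrow the range over which the 120 can be ordered.

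The distance to the nearest other region was not itself a limit, but the choice of the 120 is not independent of it. Peaks that touch were joined before the width limit, so a longer stretch broken by a small gap can enter as a narrow region. Distance was measured from edge to edge to any pooled region, whether or not that region was found in all replicates. The median was 4153 bp (interquartile range 533 to 18662 bp), compared with 9526 bp in the narrow, lower-scoring regions, 14869 bp in the wider high-scoring regions and 12042 bp in all autosomal regions found in 3 replicates. Another region lay within 10 kb of 73 of the 120 (60.8%, 95% Wilson interval 51.9 to 69.1%), beside 51.0%, 40.6% and 46.0% in these sets. The interval counts the regions as independent, although they come from the same libraries, and it is no test between the sets. Within 1 kb, a distance chosen after the distances had been seen, the share was 43 of 120 (35.8%), beside 19.3%, 10.8% and 14.2%. In the counts, the higher share at 10 kb lay within 1 kb. Between 1 and 10 kb, the nearest region was found for 30 of the 120 (25%), beside 31.7%, 29.8% and 31.8%. Among regions with no neighbour within 1 kb, it was 30 of 77 (39.0%), beside 39.3%, 33.4% and 37.1%. There the share was close to that of the narrow, lower-scoring regions but still above that of the wider high-scoring ones. Joining peaks up to 1000 bp apart left these same 77 regions, so the 39.0% obtained there is the same count and no second result.

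The same distances taken within each list separately kept this order. In replicates 1, 2 and 3, 57.5%, 51.7% and 55.0% of the 120 regions had another peak of the same list within 10 kb. Their mean of 54.7% ± 2.93 (SD, n = 3) was 9.08 ± 0.507 percentage points above that of the narrow, lower-scoring regions and 20.7 ± 0.700 points above that of the wider high-scoring regions. The difference had the same sign in 3 of 3 replicates in both comparisons. An exact paired permutation test over the 3 replicates gave a two-sided p = 0.25 for each. That is the smallest value that 3 replicates allow, so the test cannot decide whether the sets differ. The test and the SD count the replicates as independent, although some shared an IVF procedure. Moreover, the same 120 regions, chosen for a peak in all 3 lists, were measured in each list. The shared sign and the small SD therefore do not measure how the difference would vary with other regions. Within 1 kb, the shares were 33.3%, 30.8% and 32.5% of the 120 regions, beside 16.8%, 13.2% and 15.6% of the narrow, lower-scoring and 8.54%, 4.94% and 6.33% of the wider high-scoring ones. Since peaks that touch are joined, these distances also depend on where the peak caller ends a peak.

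**Figure D3:**
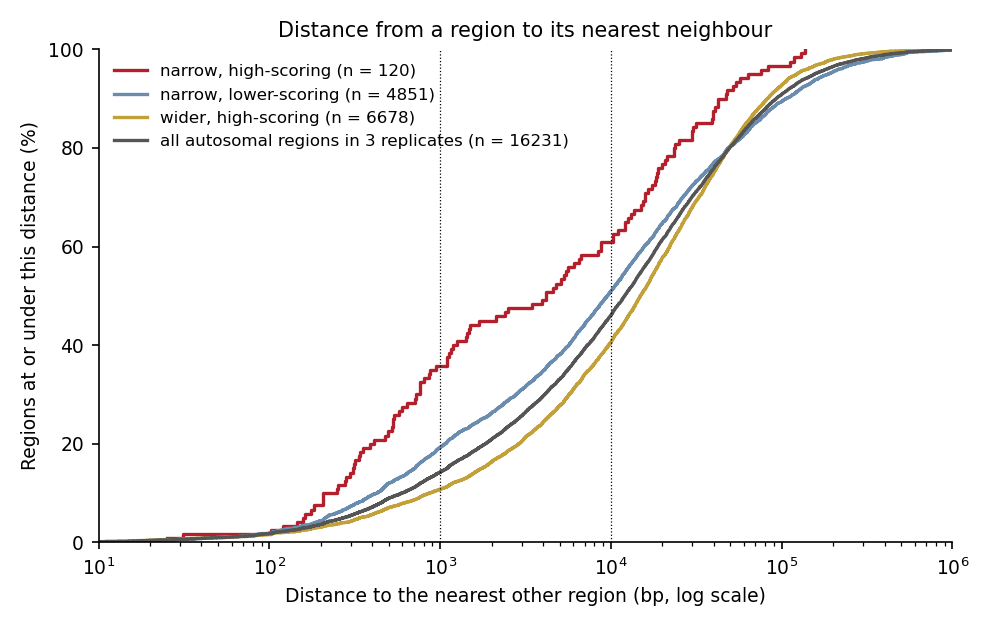
Share of regions in percent (vertical axis) whose nearest other region lies at or under a given distance in bp (horizontal axis, log scale), for the 120 narrow high-scoring regions and 3 comparison sets, with dotted lines at 1 kb and 10 kb. The line of the 120 regions reaches 35.8% at 1 kb and 60.8% at 10 kb and lies above the other sets at both.

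Of the 43 regions with a neighbour within 1 kb, 36 had a neighbour that was itself found in all 3 replicates. It was a narrow, lower-scoring region in 17 cases, a wider high-scoring region in 12, another of the 120 in 4, and a region that met neither limit in all replicates in 3. The other 7 neighbours were absent from at least 1 replicate and had low scores, from 54.0 to 150.3. In the 36 cases, the gap between both had medians of 380, 403 and 460.0 bp for replicates 1, 2 and 3, and a range from 25 to 1077 bp. That a gap exists in every list follows from the joining of the pooled peaks and is no observation, and only its size was measured. From the outer edge of one to the outer edge of the other, the stretch measured a median of 3845, 3562 and 3699 bp in replicates 1, 2 and 3, and it was above 2000 bp in each replicate in all 36. The narrow high-scoring region had the higher score in every replicate in 20 cases and the lower one in 7, whereas the order changed between replicates in 9. The neighbour was the wider of both in every replicate in 15 cases and the narrower in 13. The limits fix these counts in part. The 17 narrow, lower-scoring neighbours and the 3 that met neither limit scored under 1000 in at least 1 replicate, so none could score higher in every replicate. Likewise, the 12 wider high-scoring neighbours and the same 3 could not be narrower in every replicate. The 4 cases with another of the 120 as neighbour were counted from both sides.

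**Figure D4:**
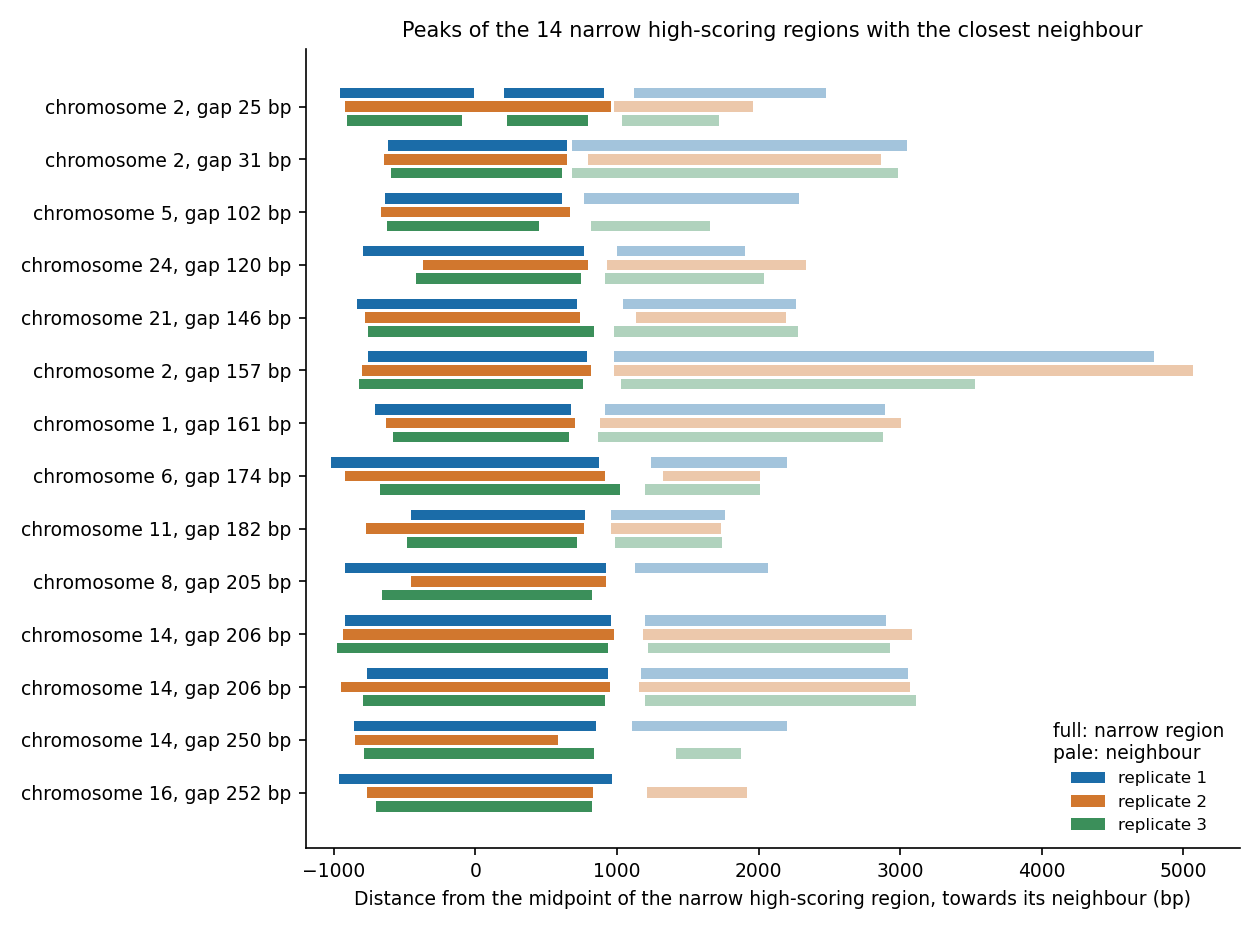
Peaks of the 14 narrow high-scoring regions with the closest neighbour, drawn as bars by their distance in bp from the midpoint of the narrow region, with the neighbour to the right in pale colour and 1 row per H3K4me3 replicate. The gaps, which the joining of pooled peaks makes certain, differ in size between replicates, and 4 of the neighbours are missing from at least 1 replicate.

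The smallest gap, 25 bp in replicate 2, lay at the region on chromosome 2 that was called in 2 pieces, next to a weak region from 125499042 to 125500539 with scores of 133.5, 103.8 and 69.0 in replicates 1, 2 and 3. On the same chromosome, the narrow region from 39229980 stood 32, 144 and 71 bp from a wider one of 2368, 2071 and 2301 bp, whose scores were only 371.3, 279.8 and 223.0. There, the narrow stretch carried the higher score in each replicate. The opposite was seen on chromosome 2 from 89884273 to 89885912, where a region of 1546, 1620.0 and 1581 bp with scores of 2121, 1354 and 1946 lay 189, 157 and 265 bp from a region of 3817, 4093 and 2506 bp with scores of 3100, 3116 and 3100. Likewise, on chromosome 24 the region from 49100680 to 49102542 lay 755, 761 and 815 bp from one of 7484, 6302 and 7557 bp that reached 3100 in each replicate.

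A pair of narrow high-scoring regions stood side by side at 2 loci. On chromosome 14, the region from 36227770 to 36229722 had 1883, 1914 and 1915 bp with scores of 2338, 1339 and 2240.0 in replicates 1, 2 and 3. Its partner from 36229929 to 36231830 had 1703, 1902 and 1709 bp with scores of 2392, 1055 and 2420. The gap between them was 238, 206 and 278 bp, and together they spanned 3824, 4022 and 3902 bp. On chromosome 10, the region from 4639316 to 4641282 had 1919, 1652 and 1746 bp and scores of 2286, 1332 and 2456. Its partner from 4641810 to 4643642 had 1831, 1773 and 1624 bp and scores of 2393, 1266 and 2555. Here the gap was 577, 527 and 604 bp. On chromosome 14, the partners were closest in width in replicate 2, whereas their scores were farther apart there than in replicates 1 and 3. The next closest pair of the 120 was 30285 bp apart, on chromosome 18.

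When peaks up to 1000 bp apart were joined before the limits were applied, 77 regions remained, and all 77 had the same start and end as before. These are the 77 regions with no neighbour within 1 kb. Their median width was 1867, 1648 and 1705 bp in replicates 1, 2 and 3, against 1671, 1552 and 1613 bp for the 43 with a close neighbour. Their median score was 2090, 1215 and 1892, against 1921, 1189 and 1990.

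At the other end, 10 of the 120 regions (8.33%) had no other region within 50 kb, beside 19.7% of the narrow, lower-scoring, 19.6% of the wider high-scoring and 19.8% of all autosomal regions in 3 replicates. The most isolated lay on chromosome 3 from 27793324 to 27795322, at 136720 bp from its nearest neighbour, with 1963, 1850.0 and 1740.0 bp and scores of 1979, 1105 and 1892 in replicates 1, 2 and 3. A region on chromosome 15 from 18643585 to 18645595 followed at 130440 bp, with 1964, 1779 and 1866 bp and scores of 2499, 1278 and 2048. Both were near the width limit in replicate 1. The third, on chromosome 11 from 22107968 to 22109548, was 118315 bp from its neighbour and had 1581, 1379 and 1523 bp with scores of 2130, 1367 and 1954. On chromosome 29, the region from 47037011 to 47039010 stood 111872 bp away with 1967, 1893 and 1776 bp and scores of 2409, 1130 and 2245. On chromosome 1, the one from 145608998 to 145610966 stood 83211 bp away with 1751, 1643 and 1969 bp and scores of 1760, 1626 and 1659. In these 5, between 83.2% and 87.0% of the region lay under a peak in all 3 replicates.

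The 120 regions were spread over 28 of the 29 autosomes, with a median of 5 per autosome. Chromosome 8 held the most, 9, followed by chromosomes 11 and 14 with 8 each and chromosomes 2, 13 and 18 with 7 each. Chromosome 28 held none among 253 regions found in all 3 replicates, which allows a share of up to 1.19%. Over all 16231 autosomal regions found in 3 replicates, the share was 0.739%. By chromosome, it was highest on chromosome 14 with 8 of 424 (1.89%), chromosome 24 with 5 of 290 (1.72%) and chromosome 8 with 9 of 548 (1.64%). These are the extremes of 29 autosomes and were not tested. Chromosome 18 held 7 of 1004 (0.697%) and chromosome 19 held 5 of 967 (0.517%). The 95% Wilson intervals of these shares overlap between chromosomes 14 (0.959 to 3.68%) and 18 (0.338 to 1.43%). Chromosome X was not part of the set, and 4 of its 620 regions found in all 3 replicates (0.645%) met the same limits. The median distance from 1 of the 120 to the next was 3.11 Mb, and 24 had another within 1 Mb. The fullest 1-Mb windows held 3, as on chromosome 17, where the third narrowest region named above shared a window with regions from 74334677 to 74336471 and from 74708486 to 74709970.

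**Figure D5:**
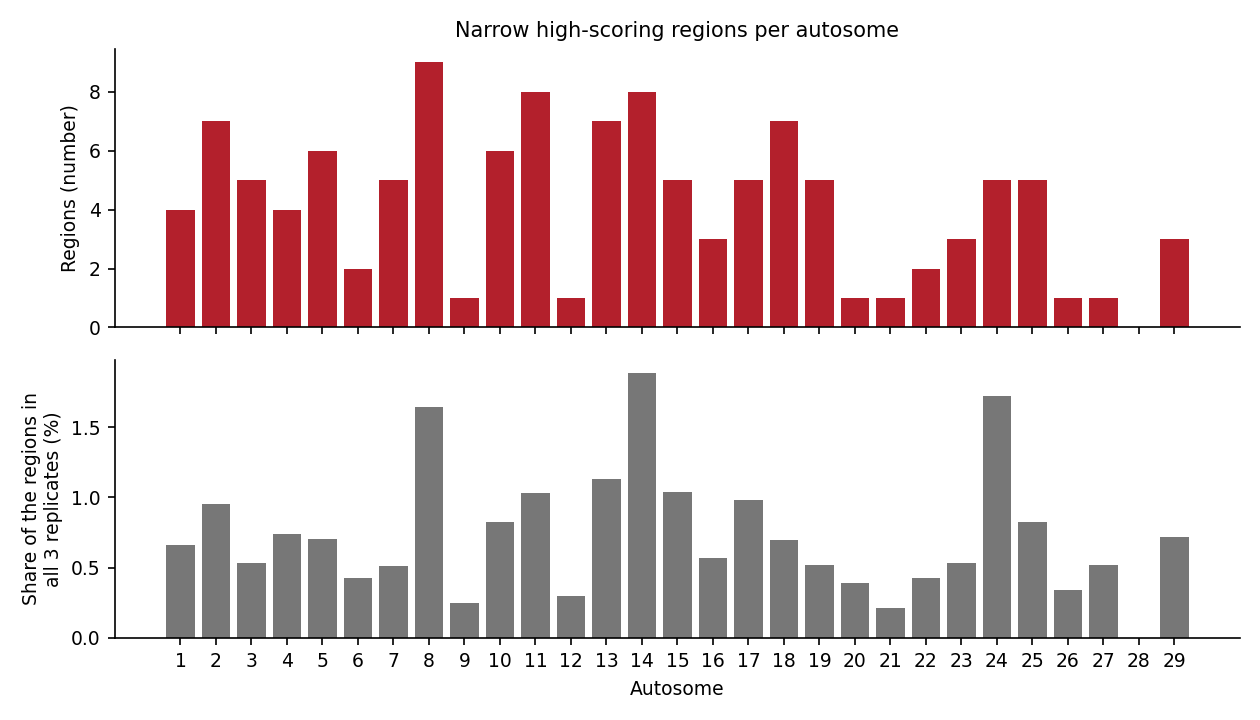
Number of narrow high-scoring regions on each autosome (top) and their share in percent of the autosomal regions found in all 3 replicates (bottom). Chromosome 8 has the most with 9, chromosome 14 the highest share with 1.89%, and chromosome 28 has none.

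A region on chromosome 26 from 38916760 to 38918581, named here after its values had been seen, was the only one of the 120 to reach 3100 in 2 replicates. Its scores were 1681, 3100 and 3100 in replicates 1, 2 and 3, and it was the only one at that value in replicate 2. The widths were 1023, 1822 and 937 bp in the same order, so that 51.4% of it lay under a peak in all 3. Replicate 2 gave the widest call there, as it did in 30 of the 120 regions.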

How the data were processed

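H3K4me3 ChIP-seq was done in 3 replicates of bovine blastocysts, each with an input that has no list of its own here. Per the submitters' processing notes, reads were aligned with Bowtie 1.2.3 to bosTau8 (UMD 3.1.1) and handled with Picard. The authors called peaks with MACS for each replicate against its input, and the MACS version is not given in the sources used here. The deposited lists give, per peak, its position and the peak caller's score, which was used as deposited.

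Peaks of the 3 lists were pooled and joined where they overlapped or touched (Python 3.11.15, pandas 2.3.3, SciPy 1.17.1), and the joining was checked with bedtools 2.31.1 and tested on simulated data. Regions were compared with narrow regions that failed the score limit in at least 1 replicate and with high-scoring regions that failed the width limit in at least 1. The regions, the limits and the comparison sets were chosen with earlier results of these data known. Regions named are the 5 narrowest by mean width, the 5 with the highest lowest-of-3 score percentile, the 5 farthest from any other region, the 5 with the closest neighbour among the 120, the 2 on either side of each limit, and those of a fullest 1-Mb window; others with a close neighbour, the one called in 2 pieces and one on chromosome 26 were chosen after their values were seen. The replicates are separate embryo pools. They came from 2 IVF procedures, and which of them share one is not given. Gene models and sequence of this build were not used here, so that regions carry no gene names, promoters or motifs.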

Additional observations from a re-analysis of the deposited data

How the results depend on the processing

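The number of narrow high-scoring regions depended on the limits. It was 11 at 1500 bp, 736 at 2500 bp, 19 at a score of 1500, 562 at a score of 500, 499 when the score had only to reach the median of its list, and 77 when peaks up to 1000 bp apart were joined. Leaving out each replicate gave 135 to 451 regions, the most without replicate 2 (451), then replicate 1 (266). Of those, 40, 40 and 74 regions had exactly the start and end of one of the 120 without replicates 1, 2 and 3. The outer edges of a pooled region can move when a replicate is left out. These are therefore counts of unchanged edges and not of regions kept, since each of the 120 met both limits in every replicate. Joining only overlapping peaks, or measuring width as the span, gave the same 120.

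The median width was 1289.7 bp and 2093 bp at the limits of 1500 and 2500 bp. The share called as 1 peak was 100% with wider joining, at 1500 bp and at a score of 1500, and 99.2 to 100% when each replicate was left out. The share with a region within 10 kb was 39.0% with wider joining, 90.9% of only 11 regions at 1500 bp and 48.9% at 2500 bp, and 50.8 to 65.2% when each replicate was left out. Counting only neighbours found in all 3 replicates, it was 50.0%. Beside this stood 41.5% of the narrow, lower-scoring, 29.5% of the wider high-scoring and 35.5% of all autosomal regions in 3 replicates. For the 120 regions and any neighbour, the share was 91.7% within 50 kb and 35.8% within 1 kb, the last chosen after the data had been seen. The mean midpoint distance was 41.8, 87.2 and 88.8 bp at 1500 bp, 2500 bp and a score of 1500. In all, 36 values counted as unchanged and 24 as moved, with some of both given above. Unchanged values moved by less than their spread or counting interval or, for the number of regions, stayed within a set fold range around 120. The settings that gave the same 120 regions could not move any value, and their values are among the 36.

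Replicates were paired only in the comparison of region sets within each list. No replicate block between conditions was fitted, since the lists carry 1 condition and the inputs have no list. The alternatives for gene starts and base composition were not run, since no gene models or genome of this build were used. The depth behind each peak is unknown, and the score limit acted mainly through replicate 2.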
